A study of Mus musculus with 11 samples.

Results

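The genes described here were those with symbols of translation initiation factors (beginning with Eif and a digit) and elongation factors (Eef and a digit). Kinases, repressors and modifiers with such symbols are included, and symbols that carry the pseudogene mark -ps were left out. The rule gave 72 of the 55401 genes counted, and 67 of the 72 had enough reads to be tested. They were followed over 3 fractions sorted from the islets of 4 male C57BL6/J mice that carried RIP-Cre, STOP-tdTomato and Nnat-EGFP together. The mice were chow fed and, by the labels, 10 weeks old, while the study's text gives a younger age. In these mice Cre under the rat insulin promoter removes a stop cassette and so marks beta cells with tdTomato, while eGFP reports the activity of *Nnat* enhancer and promoter regions. Beta cells gave 4 libraries that the labels call NNAT-positive and 4 that they call NNAT-negative, named positive-labelled and negative-labelled below. The remaining islet cells, without tdTomato, gave 3 non-beta libraries. Mice 1, 2 and 3 gave every fraction and mouse 4 gave beta cells only, so that each library was 1 fraction of 1 mouse.

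Translation begins when eIF2, carrying the initiator tRNA, joins the small ribosomal subunit with eIF1, eIF1A, eIF3 and eIF5, and the eIF4 factors bring the mRNA by its cap. eIF2B then recharges eIF2, and elongation runs on eEF1A, which delivers each aminoacyl-tRNA, on the eEF1B subunits that recharge it, and on eEF2, which moves the ribosome along. Kinases of the Eif2ak genes slow initiation by phosphorylating eIF2, and the Eif4ebp proteins do so by holding the cap-binding protein eIF4E. Beta cells devote much of their translation to proinsulin, and the kinase PERK, the product of *Eif2ak3*, is known for its need in pancreatic beta cells.

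Total counts were between 30420352 and 43238376 per library, so that 3 counts, taken as the detection floor, came to at most 0.102 CPM. CPM here is the count scaled to a common library size, with sizes corrected by the TMM method. *Nnat* itself went against the fraction labels: its mean was 61.0 ± 26.8 CPM (SD, n = 4) in positive-labelled libraries and 93.8 ± 40.1 CPM (SD, n = 4) in negative-labelled libraries, lower in the former in 4 of 4 mice (log2 difference -0.62, edgeR adjusted p = 0.444). The labels are kept as names only, and every direction between the beta fractions is a direction between labels. *Ins1* and *Ins2* together took 17.8 to 34.4% of the counts in beta libraries and 0.970 to 2.34% in non-beta libraries, and the 6 alpha cell markers checked summed to between 123279 and 171502 CPM in the latter, which also held 15815 to 62126 CPM of 7 acinar markers and 1658 to 1869 CPM of 5 endothelial markers. The non-beta fraction was therefore a mixture, and in such bulk samples fewer cells of a type and less RNA per cell cannot be told apart. Both libraries of mouse 4 stood apart in several of the genes below, and counts are also given without that mouse.

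Together the 72 genes took 1.02 to 1.17% of all counts in the beta libraries and 1.46 to 1.66% in the non-beta libraries. Most of that gap was *Eef1a1* and *Eef2*, which alone took 0.327 to 0.458% of the counts in beta libraries and 0.727 to 0.830% in non-beta libraries. These are shares of all counts, and the insulin genes, at 17.8 to 34.4% of counts in beta libraries, left less for other genes there. With TMM-scaled sizes the 72 genes summed to 9438 to 12263 CPM in beta and 14541 to 14905 CPM in non-beta libraries. Without *Eef1a1* and *Eef2* they summed to 6514 to 7464 CPM and 7303 to 7475 CPM. Per kilobase of exon, *Eef1a1* was the highest of the elongation factors and of all members, at 953 ± 205 CPM per kb (SD, n = 4) in positive-labelled libraries, 897 ± 160 (SD, n = 4) in negative-labelled libraries and 1808 ± 41.5 (SD, n = 3) in non-beta libraries. In the same order of fractions, *Eif1* was the highest scanning factor at 124, 132 and 108 mean CPM per kb, *Eif5a* the higher eIF5A gene at 111, 109 and 106, *Eif4ebp2* the highest repressor at 26.9, 26.1 and 28.6, and *Eif2ak3* the highest kinase at 13.8, 13.6 and 8.42. *Eif2s3y* was the highest eIF2 subunit gene at 13.7, 14.1 and 9.53. In the remaining groups the leading gene by the mean over the 3 fractions did not lead in each of them. *Eif4g2* was at 111, 111 and 88.6 mean CPM per kb, with *Eif4b* above it in non-beta libraries at 116. *Eif3h* was at 53.7, 53.3 and 95.6, with *Eif3c* above it in the beta fractions at 65.2 and 67.0 and *Eif3b* at 60.0 and 63.9. *Eif2b2* was at 21.1, 19.2 and 18.1, with *Eif2b5* above it in negative-labelled libraries at 20.4. *Eef1akmt1*, which encodes a lysine methyltransferase of eEF1A, was at 11.0, 11.9 and 11.0, with *Eef1akmt2* above it in the beta fractions at 11.8 and 12.5. At the other end, *Eif4ebp3*, *Eif4a3l1*, *Eif4a3l2*, *Eif4e1b* and *Eif2c5*, the last annotated as a noncoding RNA, did not exceed 0.594 CPM in any library and were not tested.

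*Eef1a1* and *Eef1a2* encode alternative forms of eEF1A, and *Eef1a2* is known from neurons and muscle. *Eef1a1* lies on chromosome 9 (78478449 to 78489151, minus strand, GRCm38) and *Eef1a2* on chromosome 2 (181147653 to 181157014, minus strand). The 250 bases before each RefSeq start (assembly GRCm38.p6) are shown because the pair holds the largest fall among the members, with the GC box GGGCGG, searched on both strands, in capitals.
Eef1a1, chr9:78481725-78481974, minus strand: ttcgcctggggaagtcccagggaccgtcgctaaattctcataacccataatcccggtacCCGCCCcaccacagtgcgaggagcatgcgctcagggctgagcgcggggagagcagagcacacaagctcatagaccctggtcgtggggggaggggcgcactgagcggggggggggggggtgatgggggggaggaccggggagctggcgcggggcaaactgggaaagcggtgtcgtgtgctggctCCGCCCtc
Eef1a2, chr2:181157016-181157265, minus strand: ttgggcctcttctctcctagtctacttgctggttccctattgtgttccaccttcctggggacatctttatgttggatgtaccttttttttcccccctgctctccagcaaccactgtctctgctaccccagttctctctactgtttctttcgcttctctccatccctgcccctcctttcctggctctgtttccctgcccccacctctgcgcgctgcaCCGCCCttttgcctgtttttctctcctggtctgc
The *Eef1a1* window lies inside the gene span given above, so the RefSeq start used here is not the outermost start of that span. The *Eef1a1* window was 68% G and C with 2 GC boxes and the *Eef1a2* window 54% with 1, all read on the opposite strand, and 32.7% of the 32851 RefSeq promoter windows hold at least 1. None of TATAA (22.8% of windows), CCAAT (33.9%), CACGTG (6.02%) or TGACGTCA (1.55%) was in either window on either strand, though TATAA stood at position 26 after the RefSeq *Eef1a1* start. A match is a description of these letters and no evidence of a bound factor.

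*Eef1a2* was almost confined to the non-beta libraries. It was at 137, 164 and 200 CPM in the non-beta libraries of mice 1 to 3, at 8.34, 7.13, 9.24 and 5.16 CPM in positive-labelled libraries of mice 1 to 4, and at 2.42, 1.77, 3.08 and 1.64 CPM in negative-labelled libraries. The 3 sets of libraries did not overlap. Relative to non-beta cells it was 20.4-fold lower in positive-labelled libraries (log2 fold change -4.35, SE 0.13, edgeR adjusted p = 3.22e-08) and 68.4-fold lower in negative-labelled libraries (log2 fold change -6.10, SE 0.15, edgeR adjusted p = 1.02e-08). *Eef1a1* was at 4564, 4388 and 4570 CPM in the non-beta libraries, at 2707, 2569, 2614 and 1613 CPM in positive-labelled libraries and at 2476, 2322, 2500 and 1650 CPM in negative-labelled libraries, so that the beta fractions overlapped each other and lay below the non-beta cells. It was 1.74-fold lower than in non-beta cells in the former (log2 fold change -0.80, SE 0.08, edgeR adjusted p = 2.77e-05) and 1.83-fold lower in the latter (log2 fold change -0.87, SE 0.08, edgeR adjusted p = 1.41e-05). Per kilobase, *Eef1a2* made up 4.24 ± 0.749% of the pair (SD, n = 3) in non-beta libraries, 0.375 ± 0.0373% (SD, n = 4) in positive-labelled libraries and 0.118 ± 0.0230% (SD, n = 4) in negative-labelled libraries. Every alternative analysis that tested them also called both genes lower than in non-beta cells.

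**Figure D1:**
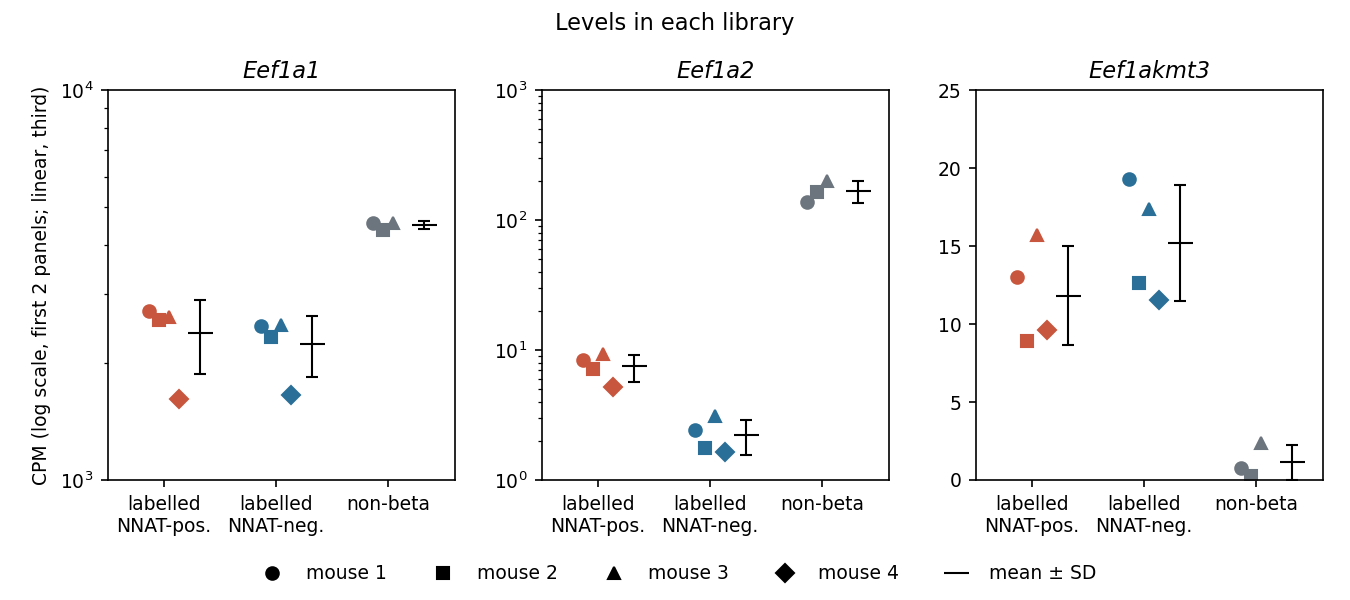
Levels of *Eef1a1*, *Eef1a2* and *Eef1akmt3* in each library, in CPM (log axes for the *Eef1a* pair, a linear axis from 0 for *Eef1akmt3*), with the mouse given by the symbol and the mean ± SD of each fraction at its right. The non-beta libraries sit highest for the *Eef1a* pair, at 4388 CPM or more for *Eef1a1* and 137 CPM or more for *Eef1a2*, and lowest for *Eef1akmt3*, at 2.39 CPM or less.

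Across the whole family, most members differed little between beta and non-beta cells. The 2 comparisons share the non-beta libraries, so their values are set side by side and are not independent. In positive-labelled libraries, 11 of the 67 tested members passed as higher and 15 as lower than in non-beta cells at an adjusted p below 0.01, against 15.8% and 19.1% of all 17424 genes tested. In negative-labelled libraries, 12 passed as higher and 16 as lower, against 15.6% and 21.3% of all genes. These shares were near those of all genes. At an unadjusted p below 0.05 the members counted 17 higher and 18 lower (all genes 24% and 29.5%), then 19 and 21 (23.2% and 31.8%). Libraries did not overlap for 16 higher and 19 lower members (all genes 21.9% and 28.8%), then for 14 and 19 (18.5% and 28.9%). Most changes were small: 50 and 49 of the 67 members lay within 0.5 of 0 on the log2 scale, and more than 2-fold changes that passed were 1 higher and 2 lower, then 1 higher and 1 lower, where 6.13% and 15.5%, then 6.18% and 17.1%, of all genes passed. The median log2 fold change of the members was 0.03 in each comparison, against -0.06 and -0.13 for all genes. The balance of calls depended on scaling, among the members and among all genes. Under RLE size factors 6 members were higher and 17 lower for positive-labelled libraries (all genes 13.2% and 20.8%). Under upper-quartile factors 15 were higher and 13 lower for negative-labelled libraries (all genes 17.9% and 20.1%). On total counts alone, which moved the median of all genes by -0.16 and -0.19, 2 were higher and 18 lower (all genes 10.9% and 21.6%), then 3 and 19 (10.3% and 24.7%). With a mouse left out the higher calls numbered 4, 7, 2 and 10 without mouse 1, 2, 3 or 4 for positive-labelled libraries, where 10.9%, 13.6%, 9.94% and 13.8% of all genes were higher. For negative-labelled libraries they numbered 7, 7, 3 and 9, where 11.0%, 13.6%, 9.54% and 14.5% of all genes were higher. Without the mouse block 6 members were higher and 11 lower (all genes 11.5% and 18.2%), then 6 and 10 (11.4% and 20.3%).

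**Figure D2:**
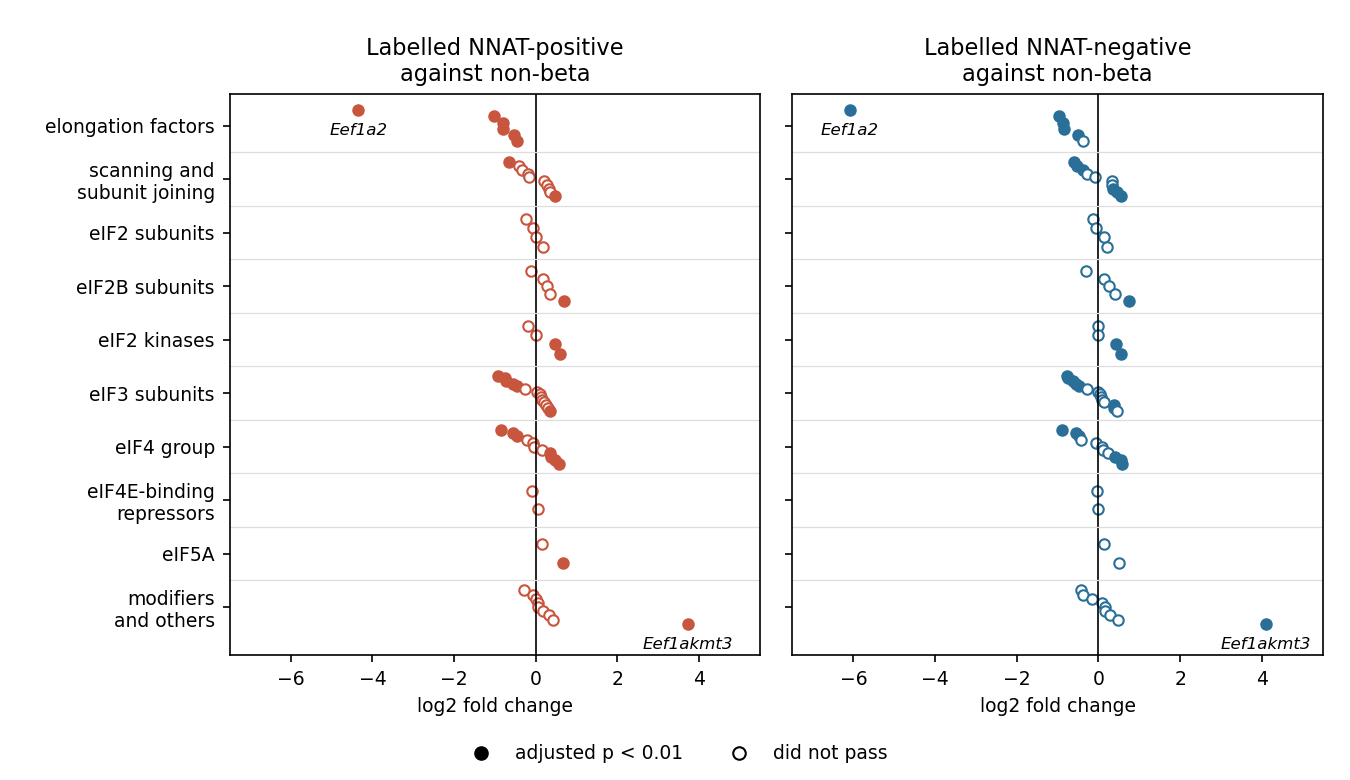
The log2 fold change of each of the 67 tested members against non-beta cells, one row per role group, for positive-labelled libraries at the left and negative-labelled libraries at the right, with filled points at an adjusted p below 0.01. Most points lie within 0.5 of 0, the elongation factors lie below 0 in both panels, and *Eef1a2* and *Eef1akmt3* lie beyond 3 in opposite directions.

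The elongation factors all lay below their non-beta level, by unequal amounts. All 6 tested genes passed as lower in positive-labelled libraries and 5 of 6 in negative-labelled libraries, where 19.1% and 21.3% of all genes did. The log2 fold changes lay between -4.35 and -0.46, then between -6.10 and -0.38. Their signs held in 4 other fits: DESeq2, RLE factors, upper-quartile factors and total counts alone. *Eef1b2*, a nucleotide exchange subunit for eEF1A, was at 393, 369 and 399 CPM in non-beta libraries, at 210, 191, 181 and 129 CPM in positive-labelled libraries and at 204, 224, 169 and 139 CPM in negative-labelled libraries. No beta library reached the lowest non-beta library, and the log2 fold changes were -1.01 (SE 0.10, edgeR adjusted p = 2.24e-05) and -0.96 (SE 0.10, edgeR adjusted p = 3.08e-05). *Eef1g*, the structural subunit of the same complex, was at 254, 259 and 276 CPM in non-beta libraries and between 105 and 157 CPM in all 8 beta libraries, with log2 fold changes of -0.81 and -0.85 (edgeR adjusted p = 2.74e-05 and 1.9e-05). *Eef2*, the translocation factor, was at 2760, 2850 and 2860 CPM in non-beta libraries, at 2107, 2023, 2036 and 1310 CPM in positive-labelled libraries and at 2035, 2012, 1970 and 1281 CPM in negative-labelled libraries. Its changes were smaller, at -0.46 and -0.49 (SE 0.08 each, edgeR adjusted p = 0.00112 and 0.00067), and neither passed without the mouse block or when only the fractions compared were fitted (largest adjusted p 0.0330 and 0.0340), nor did the first without mouse 3. *Eef1d*, another exchange subunit, passed in the first comparison alone, at -0.53 and -0.38 (edgeR adjusted p = 0.00265 and 0.0145). *Eef2k*, the kinase that silences eEF2, was at 0.33 and 0.17 (edgeR adjusted p = 0.107 and 0.403) and did not pass.

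Among the modifiers, *Eef1akmt3*, a methyltransferase for a lysine of eEF1A (chromosome 10, 127031004 to 127041513, minus strand, GRCm38), stood out in the opposite direction. It was at 0.757, 0.238 and 2.39 CPM in the non-beta libraries, at 13.01, 8.92, 15.7 and 9.62 CPM in positive-labelled libraries and at 19.3, 12.6, 17.4 and 11.5 CPM in negative-labelled libraries. Every beta library was above every non-beta library, and the fitted changes were 13.2-fold (log2 fold change 3.72, SE 0.44, edgeR adjusted p = 6.39e-05) and 17.2-fold (log2 fold change 4.11, SE 0.44, edgeR adjusted p = 3.3e-05), called under each of 13 alternatives. Over the alternatives the log2 fold changes were 3.28 to 4.58 and 3.62 to 5.01, lowest without mouse 2 and highest without mouse 3, whose non-beta library had the highest level. It shares 100 exonic bases with *Mettl1* on the opposite strand, which was at 29.6 CPM in non-beta and 41.8 and 46.8 CPM in beta libraries on average, and the strand setting of the counting was not given in the sources used here. The other 8 tested genes of this group, modifiers and others, lay between -0.42 and 0.49 in both comparisons and none passed.

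Among the 14 eIF3 subunits, which form the scaffold on the small ribosomal subunit, 5 were lower in both comparisons (*Eif3e*, *Eif3f*, *Eif3h*, *Eif3i* and *Eif3k*), *Eif3a* was higher in both and *Eif3b* passed as higher for negative-labelled libraries. Of all genes, 19.1% passed as lower and 15.8% as higher for positive-labelled libraries, and 21.3% and 15.6% for negative-labelled libraries. *Eif3f* was at 190, 167 and 200 CPM in non-beta libraries, at 101, 91.4, 95.9 and 62.9 CPM in positive-labelled libraries and at 122, 122, 91.1 and 64.8 CPM in negative-labelled libraries, a gap in every mouse (log2 fold changes -0.93 and -0.76, SE 0.12 each, edgeR adjusted p = 9.41e-05 and 0.000346). *Eif3e* fell by 0.76 and 0.62 on the log2 scale and *Eif3h* by 0.73 and 0.75, and these 3 genes were called under all 13 alternatives. *Eif3a*, the largest core subunit, was 0.34 and 0.37 higher (edgeR adjusted p = 0.0077 and 0.00469). Neither call held without the mouse block, on total counts alone, with only the fractions compared or without mouse 1, 2 or 3, with largest adjusted p of 0.133 and 0.127.

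The eIF4 group, which recruits mRNA, split by gene. *Eif4b* and *Eif4h*, RNA-binding partners of the helicase eIF4A, were lower in beta cells. *Eif4b* was at 506, 550 and 500 CPM in non-beta libraries and between 245 and 291 CPM in the 8 beta libraries, which did not overlap them (log2 fold changes -0.85 and -0.89, SE 0.08 each, edgeR adjusted p = 1.76e-05 and 1.26e-05). *Eif4h* was -0.56 and -0.54 (edgeR adjusted p = 0.000184 and 0.000216), the second call lost with only the fractions compared (adjusted p = 0.0114). The helicase genes themselves went opposite ways. *Eif4a1* was at 146, 144 and 143 CPM in non-beta libraries and between 90.9 and 120 CPM in beta libraries (log2 fold changes -0.47 and -0.47, edgeR adjusted p = 0.00164 and 0.00163), whereas *Eif4a2* was at 357, 426 and 390 CPM in non-beta libraries and between 523 and 643 CPM in beta libraries (0.47 and 0.55, edgeR adjusted p = 0.00204 and 0.000755). Per kilobase, *Eif4a2* made up 68.7 ± 2.06% of that pair (SD, n = 3) in non-beta libraries, 80.8 ± 2.10% (SD, n = 4) in positive-labelled libraries and 81.6 ± 2.14% (SD, n = 4) in negative-labelled libraries, with a highest non-beta library of 70.6% and a lowest beta library of 78.0%. Small nucleolar RNA genes lie within the exons of *Eif4a2*, and how reads over such shared bases were counted was not given in the sources used here. *Eif4g1*, the scaffold of the cap complex, was at 329, 282 and 276 CPM in non-beta libraries and between 419 and 467 CPM in beta libraries (0.57 and 0.58, SE 0.10 each, edgeR adjusted p = 0.000739 and 0.000667). Its paralog *Eif4g3* was 0.35 higher in positive-labelled libraries (edgeR adjusted p = 0.00323) and at 0.23 in negative-labelled libraries (edgeR adjusted p = 0.0299), and *Eif4g2*, which encodes a relative that lacks the eIF4E-binding site, was 0.38 and 0.39 higher (edgeR adjusted p = 0.00701 and 0.00585). The *Eif4a2*, *Eif4g1* and *Eif4g3* calls were lost on total counts alone and without mouse 3 in the first comparison, where the largest adjusted p were 0.0267, 0.0154 and 0.0945. In the second comparison *Eif4g1* lost its call on total counts alone, with only the fractions compared and without mouse 3 (largest adjusted p 0.0159), and *Eif4a2* with only the fractions compared (adjusted p = 0.0147). Over DESeq2, RLE factors, upper-quartile factors and total counts alone, *Eif4g2* was called in 2 of the 4 fits in the first comparison and 3 of 4 in the second.

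Of the 10 scanning and subunit-joining factors, 1 passed as higher and 1 as lower for positive-labelled libraries (all genes 15.8% and 19.1%). For negative-labelled libraries 3 passed as higher and 3 as lower (all genes 15.6% and 21.3%). *Eif5*, the GTPase activator of eIF2, was higher (0.48 and 0.54, edgeR adjusted p = 0.00231 and 0.00102) and *Eif1ax*, an eIF1A gene, lower (-0.65 and -0.60, edgeR adjusted p = 0.000268 and 0.000458) in both comparisons. *Eif1*, which guards start codon choice, was at 218, 229 and 231 CPM in non-beta libraries, at 275, 268, 277 and 223 CPM in positive-labelled libraries and at 305, 273, 287 and 246 CPM in negative-labelled libraries. Among beta libraries only the positive-labelled one of mouse 4 lay within the non-beta range. The gene passed for negative-labelled libraries only (0.27 and 0.36, edgeR adjusted p = 0.0213 and 0.00454), a difference between fractions that itself did not pass (log2 -0.09, edgeR adjusted p = 0.92). This call was lost in 5 of 13 alternatives, those without mouse 1 or mouse 3 among them (largest adjusted p 0.143), and the *Eif5* calls were lost in 3 each, those without mouse 3 among them (largest adjusted p 0.0349 and 0.0185). None of the 4 eIF2 subunit genes passed in either comparison, with log2 fold changes between -0.24 and 0.20. Of the 5 eIF2B subunits 1 passed: *Eif2b5*, the catalytic subunit, was at 32.9, 30.1 and 35.8 CPM in non-beta libraries, at 53.6, 48.6, 57.3 and 43.2 CPM in positive-labelled libraries and at 55.8, 57.5, 52.1 and 46.5 CPM in negative-labelled libraries. All beta libraries lay above all non-beta libraries (log2 fold changes 0.68 and 0.75, SE 0.10 each, edgeR adjusted p = 0.000245 and 0.000121), and the call held under all 13 alternatives.

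The kinases of eIF2 differed from one another. *Eif2ak3*, encoding PERK, the kinase of endoplasmic reticulum stress, was at 50.9, 47.2 and 54.1 CPM in non-beta libraries, at 76.1, 63.9, 92.6 and 98.9 CPM in positive-labelled libraries and at 79.5, 52.5, 101 and 95.6 CPM in negative-labelled libraries. Mouse 2 gave the lowest value of each beta fraction, and its negative-labelled library overlapped the non-beta cells. The log2 fold changes were 0.60 (SE 0.12, edgeR adjusted p = 0.00223) and 0.56 (SE 0.12, edgeR adjusted p = 0.003). *Eif2ak1*, encoding the heme-regulated kinase HRI, was at 41.3, 36.6 and 41.9 CPM in non-beta libraries and between 46.2 and 59.9 CPM in beta libraries, with no overlap (0.47 and 0.42, SE 0.10 each, edgeR adjusted p = 0.00275 and 0.00542). Neither kinase passed without the mouse block, on total counts alone or without mouse 3, with largest adjusted p over the alternatives of 0.0217 and 0.0432 for *Eif2ak3* and 0.0344 and 0.103 for *Eif2ak1*. Of 13 alternatives, the *Eif2ak3* calls were lost in 4 and 5 and the *Eif2ak1* calls in 5 and 7. *Eif2ak2*, encoding the double-stranded RNA kinase PKR, was at 32.6, 33.2 and 32.6 CPM in non-beta libraries and between 25.1 and 36.1 CPM in beta libraries (-0.20 and -0.01, edgeR adjusted p = 0.236 and 0.97). *Eif2ak4*, encoding the amino acid sensor GCN2, was at 18.6 to 20.8 CPM in non-beta libraries and 18.1 to 27.1 CPM in beta libraries (0.01 and -0.01, edgeR adjusted p = 0.95 and 0.945), and neither of these passed.

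The repressors of eIF4E did not pass in any comparison. *Eif4ebp2* was at 170, 170 and 157 CPM in non-beta libraries, at 172, 172, 166 and 113 CPM in positive-labelled libraries and at 171, 153, 180 and 100 CPM in negative-labelled libraries. Mouse 4 was lowest in both beta fractions, and the log2 fold changes were 0.06 and 0.00 (SE 0.09 each, edgeR adjusted p = 0.638 and 0.994). *Eif4ebp1* was at 9.47 to 12.7 CPM in non-beta libraries and 6.26 to 11.6 CPM in beta libraries (-0.10 and -0.05, SE 0.19 each, edgeR adjusted p = 0.717 and 0.865). *Eif4ebp3* had no read in 6 of the 8 beta libraries and in 2 of the 3 non-beta libraries.

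**Figure D3:**
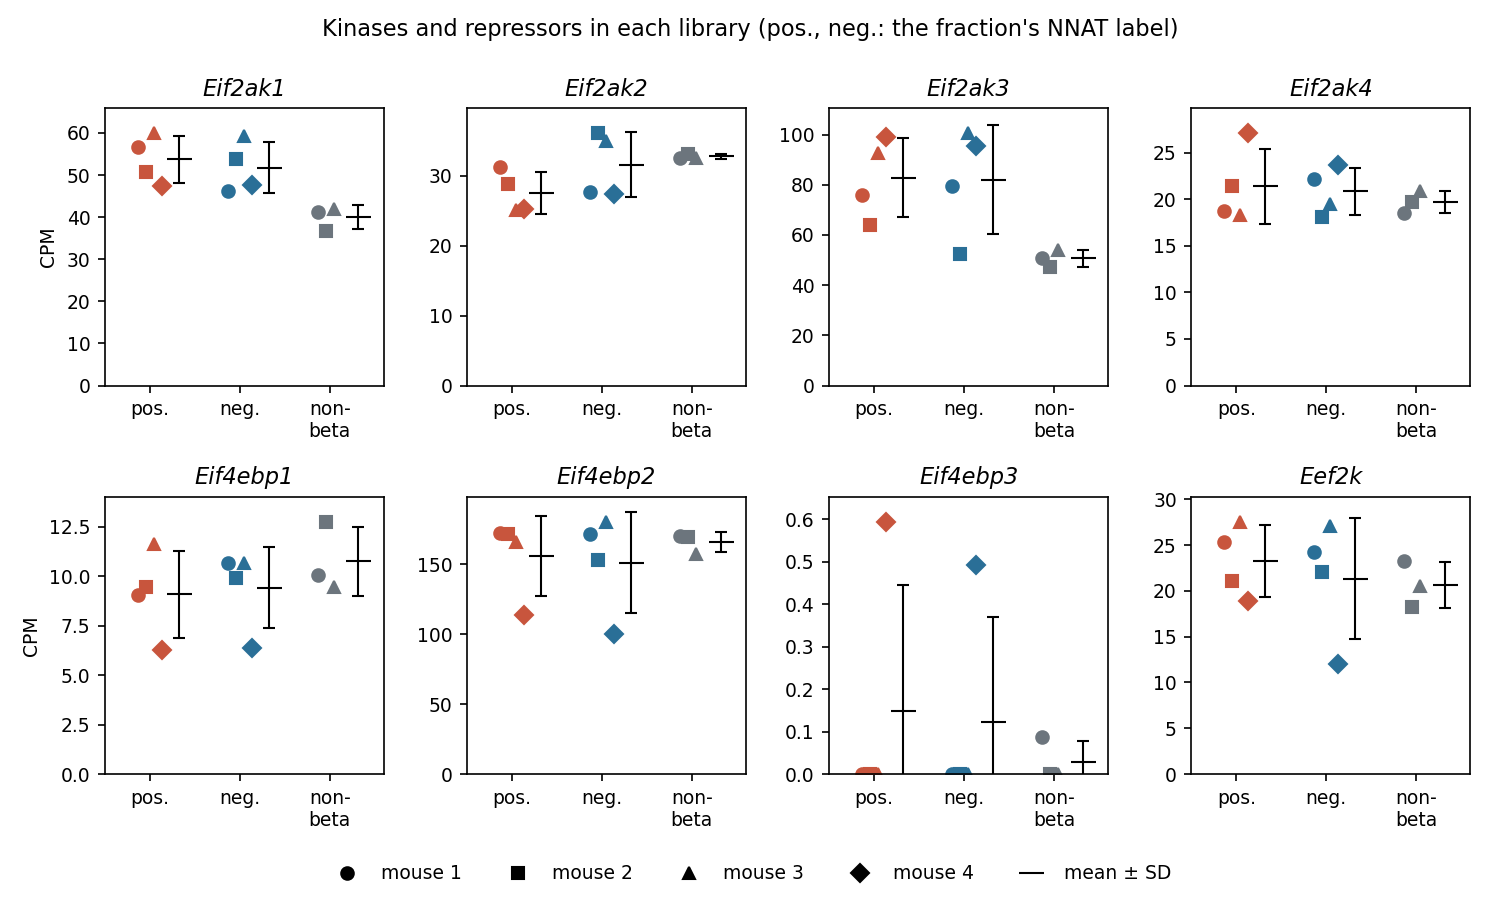
CPM of the 4 eIF2 kinases, the 3 eIF4E-binding repressors and *Eef2k* in each library on linear axes from 0, with symbols for mice and the mean ± SD of each fraction (pos. and neg. give the NNAT label). *Eif2ak1* and *Eif2ak3* have lower means in non-beta cells, mouse 4 is lowest for *Eif4ebp2* in both beta fractions, and *Eif4ebp3* is above 0.4 CPM in mouse 4 alone.

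Between the beta fractions, 1 member of 67 passed: *Eef1a2* was higher in positive-labelled libraries, and no member passed as lower, against 0.0517% and 0% of all genes tested (0.0459% higher by more than 2-fold). In mice 1 to 4 its CPM was 8.34 against 2.42, 7.13 against 1.77, 9.24 against 3.08 and 5.16 against 1.64. The fractions did not overlap, as was so for 1.72% of all genes in this direction. The log2 difference was 1.75 (SE 0.13, 3.36-fold, edgeR adjusted p = 0.000673), from 1.57 to 1.98 in single mice. The values rest on 226 to 353 reads per positive-labelled library and 58 to 111 reads per negative-labelled library. The call was lost without the mouse block, with only the fractions compared and without mouse 3 (largest adjusted p 0.0448), with a log2 difference of 1.67 to 1.81 over all alternatives. The higher fraction is the one with the lower mean of *Nnat* mRNA, a difference that did not itself pass.

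Markers of the other islet endocrine cells were higher in the same libraries. Of the markers checked, 6 of 6 for alpha cells, 3 of 3 for delta cells and 2 of 2 for PP cells were higher in positive-labelled libraries, and the 2 PP markers passed. Their sums were 2818 to 4077 against 1587 to 2486 CPM for alpha, 1335 to 2412 against 517 to 1018 CPM for delta and 300 to 421 against 89.0 to 159 CPM for PP cells, and no such marker was at 0 in any beta library. All 7 acinar markers were also higher, though none passed and the sums overlapped (9.69 to 2211 against 49.97 to 451 CPM), and the 5 endothelial markers, all higher too, summed to at most 5.76 CPM, with *Cdh5* and *Emcn* at 0 in negative-labelled libraries. As a percentage of its mean in non-beta libraries, *Eef1a2* stood at 4.48 in positive-labelled libraries and 1.33 in negative-labelled libraries. *Gcg*, the glucagon gene, stood at 1.97 and 0.957, the somatostatin gene *Sst* at 18.0 and 7.10 and the pancreatic polypeptide gene *Ppy* at 12.4 and 4.39. Of the other lists, 1 of 8 beta, 3 of 4 ductal, 4 of 5 leukocyte, 4 of 4 mesenchymal and 4 of 4 Schwann and neuronal markers were higher, none passing. The Schwann and neuronal markers summed to 146 to 198 CPM in positive-labelled, 118 to 205 CPM in negative-labelled and 84.4 to 97.7 CPM in non-beta libraries. The part of other cells in the *Eef1a2* difference was not tested.

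**Figure D4:**
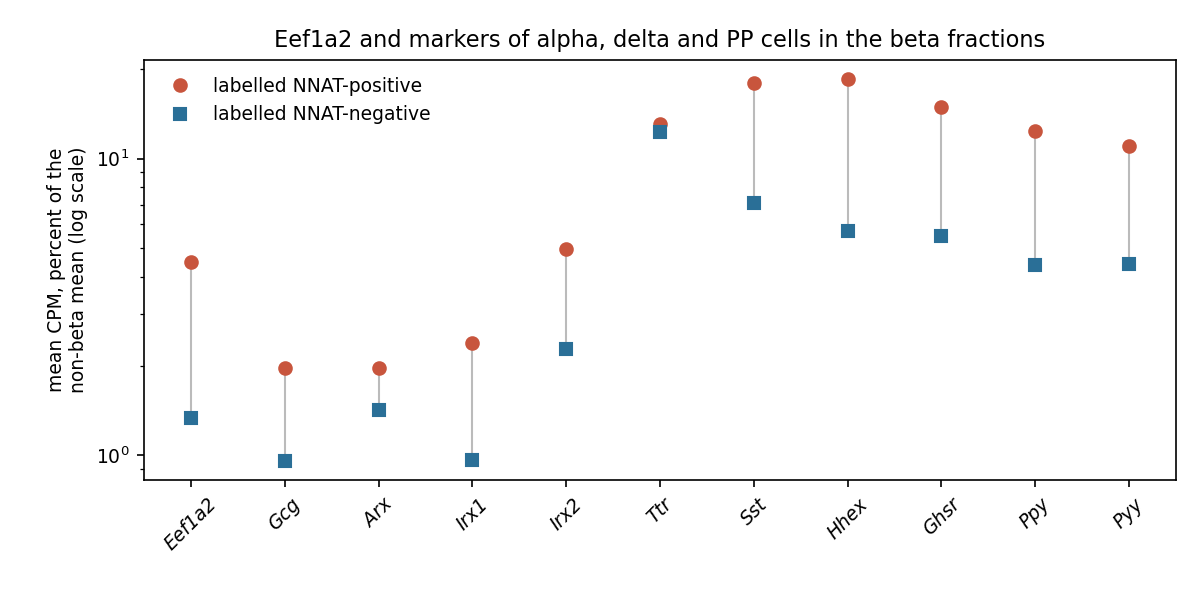
Mean CPM of *Eef1a2* and of the alpha (*Gcg* to *Ttr*), delta (*Sst* to *Ghsr*) and PP (*Ppy*, *Pyy*) markers in each beta fraction, as a percentage of the mean in non-beta libraries on a log axis. Circles (positive-labelled) lie above squares (negative-labelled) for all 11 genes shown, with *Eef1a2* at 4.48 and 1.33%.

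For the remaining 66 members the log2 difference between the beta fractions was between -0.39 and 0.31, with a median SE of 0.10 over the members and a median of 0.00. At an unadjusted p below 0.05 there were 1 higher member (*Eef1a2* itself) and 1 lower, against 4.82% and 0.746% of all genes, and the lower one, *Eif5b* (-0.25, edgeR adjusted p = 0.834), was lower in 3 of 4 mice. Members that were higher in 4 of 4 mice in positive-labelled libraries were, besides *Eef1a2*, *Eif4g3* (0.13), *Eif3d* (0.08), *Eef2* (0.03) and *Eif5a* (0.02), and those lower in 4 of 4 were *Eef1akmt3* (-0.39), *Eif3e* (-0.15) and *Eif1* (-0.09), all with edgeR adjusted p between 0.885 and 1. The signs of *Eef2* and *Eif5a* turned under other scalings. *Eef1a1* was at 0.08 (SE 0.07, edgeR adjusted p = 0.943), the kinases lay between -0.19 and 0.05 and the tested repressors between -0.05 and 0.06.

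**Figure D5:**
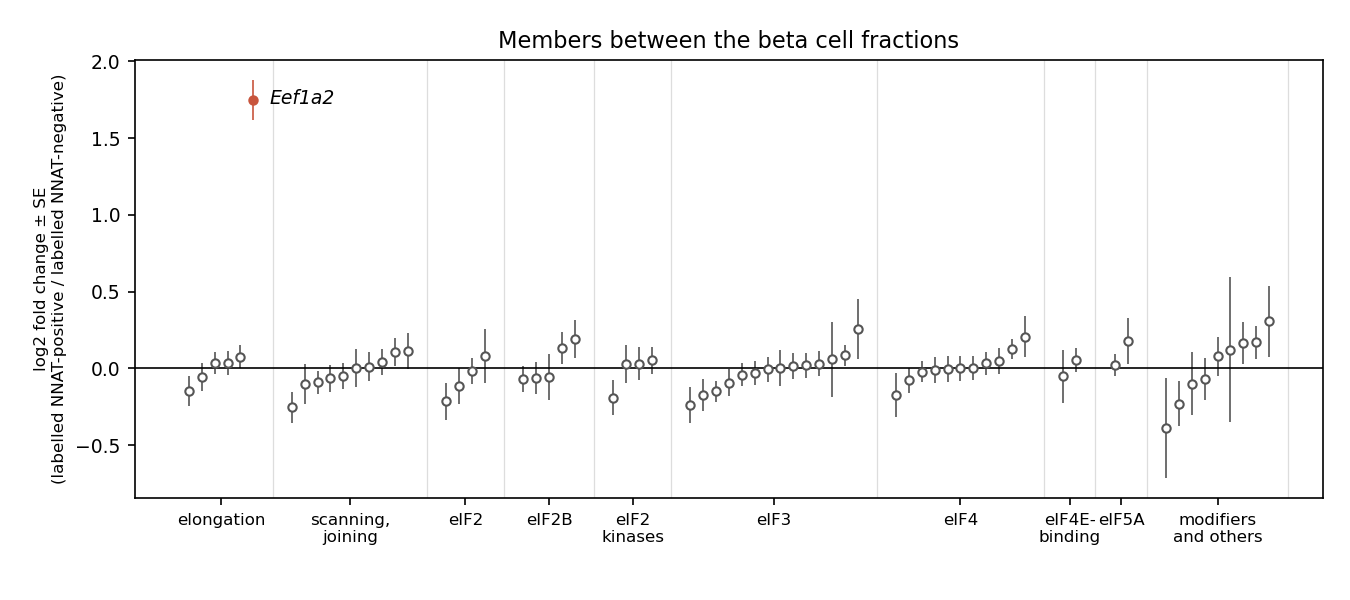
Log2 fold change ± SE of the 67 tested members between positive-labelled and negative-labelled libraries, grouped by role and ordered by size within a group. *Eef1a2* is at 1.75 and every other member lies between -0.39 and 0.31.

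The proportions of the remaining paralog pairs were not tested and are given as a description. Per kilobase, *Eif5a2* made up 3.25 ± 0.519% (SD, n = 3) of the eIF5A pair in non-beta libraries, 4.44 ± 0.608% (SD, n = 4) in positive-labelled libraries and 3.99 ± 0.588% (SD, n = 4) in negative-labelled libraries. The level of *Eif5a2* passed as higher than in non-beta cells for positive-labelled libraries only (log2 fold changes 0.67 and 0.49). *Eif4g3* made up 23.7 ± 2.02% (SD, n = 3), 21.1 ± 0.875% and 19.6 ± 0.510% (SD, n = 4 each) of its pair with *Eif4g1*, with a lowest non-beta library of 21.3% and a highest beta library of 21.9%. *Eif1ax* made up 41.1 ± 5.61%, 32.0 ± 2.31% and 34.6 ± 5.45% of its pair with *Eif1a*, and *Eif4e3* 57.0 ± 2.11%, 53.5 ± 1.74% and 56.9 ± 7.69% of its pair with the cap-binding gene *Eif4e*. *Eif3j2* made up 63.6 ± 9.82%, 59.0 ± 5.61% and 61.9 ± 7.95% of its pair with *Eif3j1*, a nearly identical copy, so that reads could have been split or lost. For the eIF2 gamma subunit, the Y-linked *Eif2s3y* was at 38.6, 36.5 and 43.9 CPM in non-beta libraries, at 46.3, 44.6, 45.2 and 91.9 CPM in positive-labelled libraries and at 46.6, 38.5, 50.3 and 99.7 CPM in negative-labelled libraries. Mouse 4 was above the other mice in both fractions, whereas its X-linked copy *Eif2s3x* was at 21.9 and 20.1 CPM there, within the range of 15.3 to 31.1 CPM of the other beta libraries. Reads of *Eif2s3x* and *Eif2s3y*, of *Eif1a* and *Eif1ax*, and of *Eef1a1* and its many processed copies may also have been split or lost between near-identical sequences.

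In 49 further genes of the pathway, all tested, 9 passed as higher and 4 as lower in positive-labelled libraries than in non-beta cells, where 15.8% and 19.1% of all genes did. In negative-labelled libraries 13 and 6 passed, where 15.6% and 21.3% of all genes did, and none passed between the beta fractions. Changes of more than 2-fold were few. In the integrated stress response, the program downstream of eIF2 phosphorylation, *Chac1*, a glutathione-degrading enzyme, was at 3.22 ± 1.58 CPM (SD, n = 3) in non-beta libraries, 13.03 ± 3.70 CPM (SD, n = 4) in positive-labelled libraries and 12.8 ± 1.01 CPM (SD, n = 4) in negative-labelled libraries (log2 fold changes 2.01 and 2.02, edgeR adjusted p = 0.000206 and 0.000177). *Asns*, the asparagine synthetase, was at 57.5 ± 16.5, 118 ± 22.2 and 126 ± 25.8 CPM in the same order (1.20 and 1.28, edgeR adjusted p = 6.21e-05 and 3.63e-05). *Ppp1r15a*, which encodes the stress-induced subunit of an eIF2 phosphatase, was at 58.9 ± 13.2, 39.6 ± 19.7 and 35.9 ± 19.3 CPM in that order. Its libraries overlapped the non-beta libraries in both comparisons, though it was lower in 3 of 3 mice in each. The fitted changes, with the mouse as block, were -0.98 and -1.15 (edgeR adjusted p = 3.89e-05 and 1.28e-05), so that the stress response genes did not move one way. *Mknk2*, a kinase of eIF4E, was at -1.22 and -1.50 (edgeR adjusted p = 0.000177 and 3.83e-05), and *Paip2b*, a repressor of the poly(A)-binding protein, at 1.07 in both (edgeR adjusted p = 2.07e-06 and 1.95e-06). Of the 10 genes of the stress response list, 3 passed as higher and 1 as lower for the former fraction and 3 and 2 for the latter. In mTORC1 and MNK signalling 4 of 12 passed as higher and 2 as lower in each comparison. No gene passed among the 2 hypusine synthesis and 2 selenocysteine elongation genes. The rest were 1 higher and 0 lower, then 2 and 1, of 9 mitochondrial translation factors, 1 and 0, then 2 and 0, of 5 poly(A)-binding proteins and partners, and 0 and 1, then 2 and 1, of 9 termination and recycling genes.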

How the data were processed

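The authors sorted tdTomato and eGFP fractions by FACS, made stranded poly(A) libraries and, per the labels and the study's methods, aligned reads to mm10 with STAR 2.7.1a. The deposited values are raw counts per gene from STAR on GENCODE release 25 (whole numbers, no normalisation), used here as deposited. None of the 55 pairs of libraries was identical. Lengths, coordinates and overlaps came from GENCODE release 21 (GRCm38), in which all 72 members matched, and promoters from RefSeq, in which 55 did. In R 4.3.3, edgeR 4.0.16 quasi-likelihood tests with TMM factors, filterByExpr and the mouse as block ran on all 11 libraries. P values were adjusted by Benjamini-Hochberg over 17424 genes, and calls needed an adjusted p below 0.01. SEs are the log2 fold change over the square root of F. Libraries with one number came from one mouse, and deviations of same-mouse libraries correlated at 0.182 to 0.658 between the beta fractions, and at only 0.0903 to 0.125 (positive-labelled) and 0.0321 to 0.0662 (negative-labelled) with non-beta libraries. In simulated counts, 69 of 100 genes changed 2-fold and 85 of 100 changed 4-fold were called between positive-labelled beta and non-beta cells, with 1 unchanged gene called, and 76, 84 and 8 between the beta fractions (16902 and 16891 genes). The simulation gave each gene the same mean in all fractions before these changes and no mouse effect, so its rates need not hold for these data. The members, lists and rules were chosen with earlier results of these data known. Named genes were the *Eef1a* pair, kinases, repressors, *Eef2* and *Eef2k*, the smallest p values per comparison and direction that had one sign in every mouse (up to 8 against non-beta, 5 between beta fractions), the highest member of each role and 7 further paralog pairs. *Eif5b*, *Eif3b*, *Eif3c*, *Eif3i*, *Eif3k*, *Eef1akmt2* and *Eef1d* were added to complete counts and rankings after their values were seen. Alternatives were the tool (DESeq2 1.42.0), scaling, filter, block, libraries fitted, threshold, the 50 most abundant genes and each mouse left out.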

Additional observations from a re-analysis of the deposited data

Results flagged for a closer look

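In groups of 4 beta libraries, 10 of 82 tested had 1 library far from the other 3 by Dixon's criterion, and all 10 were mouse 4. The 82 groups came from 41 named members, and no share over all genes is given here to set beside them. The criterion flags about 1 in 20 independent groups by chance. Genes of one library are not independent, so this rate does not measure how unusual 10 of 82 is. The insulin genes took 18.0 and 17.8% of counts in the beta libraries of mouse 4 and 24.0 to 34.4% in the others. The TMM factors there were 1.12 and 1.13, against 0.870 to 0.964, and apply to every gene. In its positive-labelled library, mouse 4 was lowest for *Eef1a1* (1613 CPM), *Eef2* (1310 CPM), *Eif4b* (245 CPM), *Eif1* (223 CPM) and *Eif4ebp2* (113 CPM) and highest for *Eif2s3y* (91.9 CPM) and *Eif4ebp3* (0.594 CPM). In its negative-labelled library it was lowest for *Eef2* (1281 CPM) and highest for *Eif3j1* (11.2 CPM) and *Eif4ebp3* (0.492 CPM). The other 6 beta libraries had no *Eif4ebp3* read, so that any read in mouse 4 met the criterion for this gene. It shares 501 exonic bases with another annotated gene on its own strand, and how reads over shared bases were counted was not given. The summed level of the 72 members was 9438 and 9750 CPM in the beta libraries of mouse 4 and 11629 to 12263 CPM in the other beta libraries. Mouse 4 had no non-beta library, so that mouse and fraction cannot be told apart for it in the comparisons with non-beta cells.

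The distance of *Eef1a2* to its non-beta level differed between the beta fractions by 1.75 on the log2 scale, and the difference itself passed the test given above.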

How the results depend on the processing

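Precision was limited by 3 or 4 mice per fraction and, for *Eef1a2* and *Eef1akmt3*, by low counts. Members called higher than in non-beta cells (11 for positive-labelled, 12 for negative-labelled libraries) came to 6 and 6 without the mouse block (all genes 11.5% and 11.4%, from 15.8% and 15.6%), 2 and 3 on total counts alone (10.9% and 10.3%), 7 and 2 with only the fractions compared (13.5% and 9.06%), 6 for the former under RLE factors (13.2%), and 2 to 10 and 3 to 9 with one mouse left out (9.94 to 13.8% and 9.54 to 14.5%). Members called lower for negative-labelled libraries (16; all genes 21.3%) were 10 without the block (20.3%) and 9 with only the fractions compared (16.5%). Between the beta fractions the 1 call became 0 without the block, with only the fractions compared and without mouse 3, and was 1 without any other mouse. The cause was not tested. Of 59 fold changes of named members, the direction and side of the threshold were kept by 41 to 57, fewest with only the fractions compared. All changes of sign were of members that did not pass. For positive-labelled libraries against non-beta, *Eif2ak4* (0.01) came to -0.083 with DESeq2 and RLE, -0.14 on total counts, -0.0073 without the 50 most abundant genes, -0.014 without the filter, -0.0012 with a stricter one, -0.019 with only these fractions and -0.050 to 0.11 with one mouse left out. *Eif4ebp2* came to -0.088 without the block, -0.039 with DESeq2 and RLE and -0.10 on total counts, and *Eif4ebp1* to between -0.27 and 0.054 with one mouse left out. For negative-labelled libraries, *Eif2ak4* came to 0.081 without the block, 0.068 with upper-quartile factors, 0.012 with only these fractions and -0.13 to 0.043 with one mouse left out. *Eif4ebp2* came to -0.13 without the block, -0.060 with DESeq2 and RLE, -0.19 on total counts, -0.019 without the 50 most abundant genes, -0.0033 with the stricter filter and -0.083 to 0.050 with one mouse left out. *Eif2ak2* and *Eif4ebp1* came to 0.074 and 0.038 with upper-quartile factors, and to -0.082 to 0.067 and -0.16 to 0.099 with one mouse left out, and *Eef2k* to -0.027 on total counts. Between the beta fractions, *Eef2* came to -0.0025 with DESeq2, -0.0024 with RLE, -0.0049 with only these fractions and -0.0033 to 0.042 with one mouse left out. *Eif5a* came to -0.015 with DESeq2 and RLE, -0.011 with upper-quartile factors and with no filter, -0.017 with only these fractions and -0.012 to 0.028 with one mouse left out. Reduced fits without mouse 1, 2 or 3 rest on 2 non-beta libraries.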
